A study of Homo sapiens with 7 samples.

Results

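The DEAD-box and DEAH-box RNA helicases were followed here at the level of mRNA in HEK-293 cells, a line derived from human embryonic kidney. Members were taken by symbol, as DDX or DHX followed by a number, with the innate sensors RIGI and DHX58 left out, which gave 53 of the 19978 genes in the count table. All cells were kept for 48 h in DMEM with serum. Control cells had medium of pH 7.4 with the solvent DMSO (2 samples). SRPIN340 cells had medium of pH 7.4 with 10 µM of SRPIN340, an inhibitor of the kinases that phosphorylate SR splicing factors (2 samples). Acidosis cells had medium acidified to pH 6.6 with DMSO (3 samples). The study's methods give DMSO at the same concentration in all groups, SRPIN340 included. In the labels' treatment text the number of the compound differs from that in the sample titles, and the titles were followed. The study describes the samples as biological repeats that were each sequenced in replicates. The table holds 1 column per repeat, so the p-values measure the spread between repeats.

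RNA helicases of these families use ATP to open short RNA duplexes or to strip proteins from RNA. The DEAH-box enzymes drive the ordered remodelling of the spliceosome, a large set of DEAD-box enzymes works in the nucleolus on ribosomal RNA, and others act in mRNA export, translation and mRNA decay. Few of them are specific to a tissue, and most are needed in every dividing cell.

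Library totals lay between 13615816 and 24110460 estimated counts, and values are given as CPM, each count set against its library's total after trimmed-mean (TMM) scaling between libraries. The TMM factors were 1.17 to 1.21 in control and SRPIN340 libraries and 0.78 to 0.80 in acidosis libraries. Of the HEK-293 markers, VIM, NEFL, NEFM, LHX1 and EYA1 were present in every library, and PAX2 was low, at a mean of 6.78 CPM in control and 1.82 CPM in acidosis. VIM was at a mean of 867 CPM in control and 2714 CPM in acidosis and NEFM at 22.8 and 71.8 CPM, and the 6 markers summed to 993 and 1064 CPM in control, 1019 and 1068 CPM with SRPIN340 and 2944 to 3000.0 CPM in acidosis. Among 7 markers of blood, endothelium, liver and fibroblasts, CD3E was at 0 in every library and the sum of all 7 was 31.6 and 32.8 CPM in control, 29.3 and 39.0 CPM with SRPIN340 and 60.3 to 68.9 CPM in acidosis. Most of that sum was COL1A1, at a mean of 30.8 CPM in control and 62.3 CPM in acidosis. The part of either marker set in the results was not tested. In bulk RNA, fewer cells of a kind and less RNA per cell cannot be told apart.

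Acidosis shifted the helicase transcripts towards a few members. DDX3X and DDX21 rose more than 3-fold, DDX11 and DDX47 rose as well, and 6 members fell by more than 2-fold, led by DDX60. The remaining members moved by smaller amounts in both directions. Of the 53 members, 49 had enough counts to be tested and 46 of these had a mean of at least 20 CPM in control. The Y-linked DDX3Y was counted as a member and is given no value. The other 3 untested members are germline genes: DDX4 reached at most 0.14 CPM, DDX43 had at most 1 count in a library, and DDX53 had 0 counts in every library, where a count of 0 allows up to 3 counts, or 0.105 to 0.275 CPM.

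A gene was called when its adjusted p in the edgeR quasi-likelihood test was under 0.05 and its log2 fold change was over 1 in size. In acidosis against control 4 of 49 members were called higher (8.16%) and 6 were called lower (12.2%). Over all 14863 genes tested, 14.4% were called higher and 19.1% lower. By adjusted p alone, 19 members were higher (38.8%) and 18 lower (36.7%), against 32.5% and 34.2% of all genes. The groups did not overlap for 19 members that were higher and 20 that were lower (38.8% and 40.8%), where 37% and 39.4% of all genes did not overlap. The median member differed by −0.04 on the log2 scale and the median gene by −0.05. The median size of the difference, without its sign, was 0.60 for members and 0.74 for all genes. The plot of fold changes by role shows every member that was tested.

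**Figure D1:**
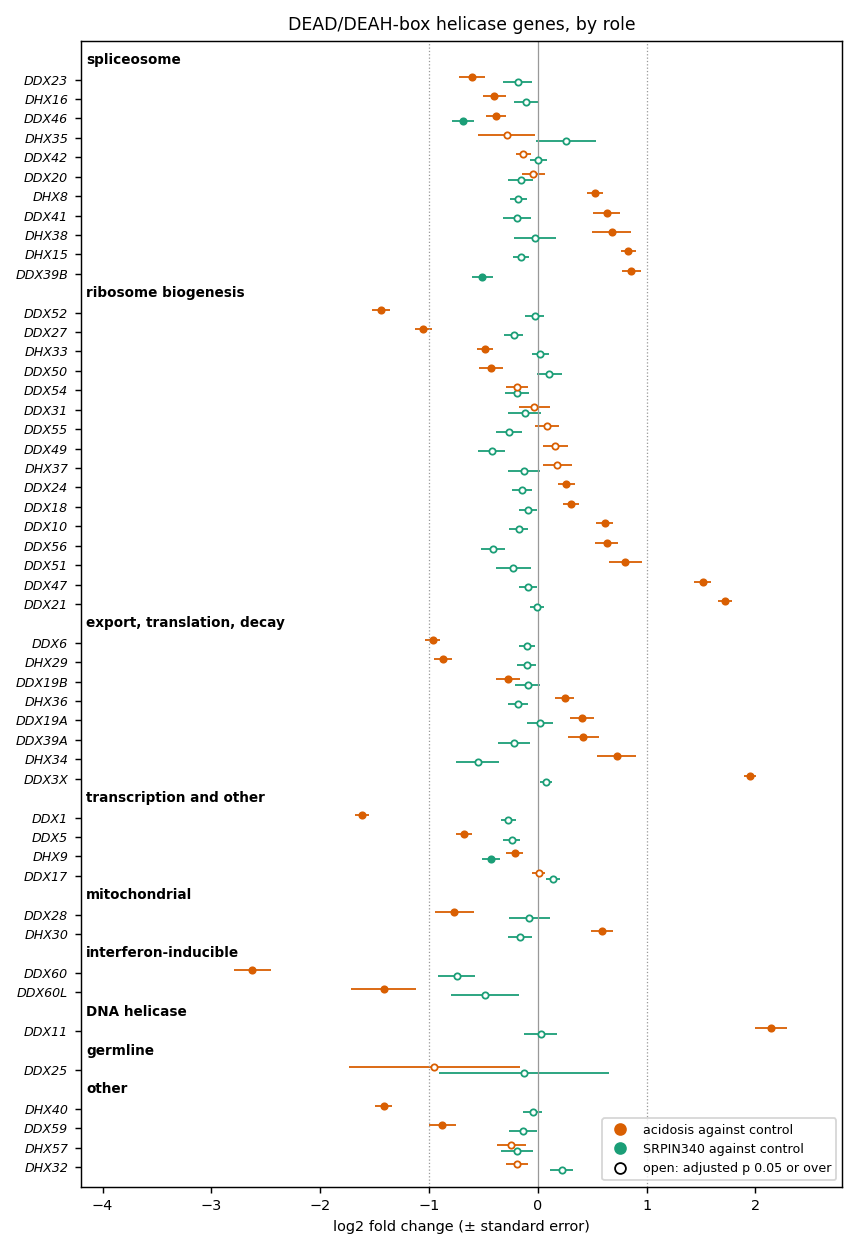
Log2 fold change with its standard error for the 49 members tested, acidosis against control (orange) and SRPIN340 against control (green), grouped by role. Filled points have an adjusted p under 0.05 and dotted lines mark a log2 fold change of 1 in either direction; 4 orange points lie past the upper line, 6 past the lower line, and no green point lies past either.

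The directions rest on the scaling between libraries. With libraries scaled by their totals alone, the median of all genes moved from −0.05 to −0.63 and that of the members from −0.04 to −0.62, so the family moved with the rest of the genes. Under that scaling 3 members were called higher (DDX3X, DDX21 and DDX11) and 14 lower, where 5.48% and 35% of all genes tested were called. The 4 called higher and 6 called lower above kept their directions. Of the 15 other members that were higher by adjusted p, only DDX39B and DHX15 still passed as higher. The plot of both scalings shows which members crossed 0.

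**Figure D2:**
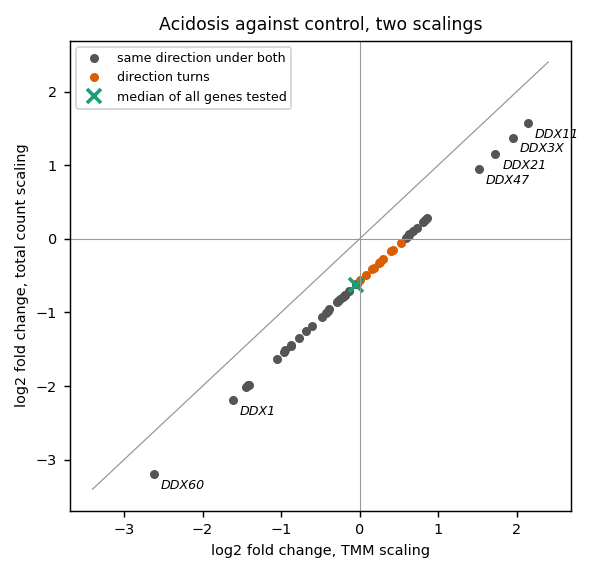
Log2 fold change of each tested member in acidosis against control under TMM scaling (horizontal) and under scaling by total counts (vertical); the cross is the median of all genes tested. Points lie on a line shifted down from the diagonal, and the 10 members in orange are above 0 under TMM scaling and below 0 under total count scaling.

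DDX3X, an X-linked helicase that helps ribosomes start on mRNAs with structured leaders (ENSG00000215301, chrX:41333348-41364472 on GRCh38), had the largest increase in CPM of any member. It was at 836 and 822 CPM in control, 855 and 890 CPM with SRPIN340, and 3279, 3093 and 3236 CPM in acidosis. All 3 acidosis samples stood far above the other 4, which lay close together. The increase was 3.86-fold (log2 1.95 ± 0.05 SE, adjusted p = 8.3e-09). Of the 31-base stretches of its canonical transcript, 14.8% also occur in transcripts of other genes. Its share of the counts of all members was 11.3% in both control samples, 12.9% and 13.2% with SRPIN340 and 29.1% to 30.2% in acidosis.

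DDX21, a nucleolar helicase that acts in transcription and processing of ribosomal RNA (ENSG00000165732, chr10:68956135-68985068), was at 428 and 403 CPM in control, 407 and 419 CPM with SRPIN340, and 1297, 1416 and 1399 CPM in acidosis. Acidosis samples again did not overlap with the rest. The increase was 3.30-fold (log2 1.72 ± 0.06 SE, adjusted p = 3.08e-08). Together DDX3X and DDX21 held 16.8% and 17.1% of member counts in control, 19.0% and 19.4% with SRPIN340 and 41.1% to 43.3% in acidosis. All members summed to 7397 and 7274 CPM in control, 6630 and 6751 CPM with SRPIN340 and 10645 to 11146 CPM in acidosis. Without DDX3X and DDX21 the sums after TMM scaling were 6134 and 6049 CPM in control and 6075 to 6570 CPM in acidosis, ranges that overlap. As a share of unscaled library counts, all members held 0.859% and 0.867% in control and 0.838% to 0.878% in acidosis, and these ranges overlap too. DDX3X and DDX21 took more of that share in acidosis. The other members therefore held a smaller share of unscaled counts in acidosis than in control, so their overlap rests on the scaling.

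**Figure D3:**
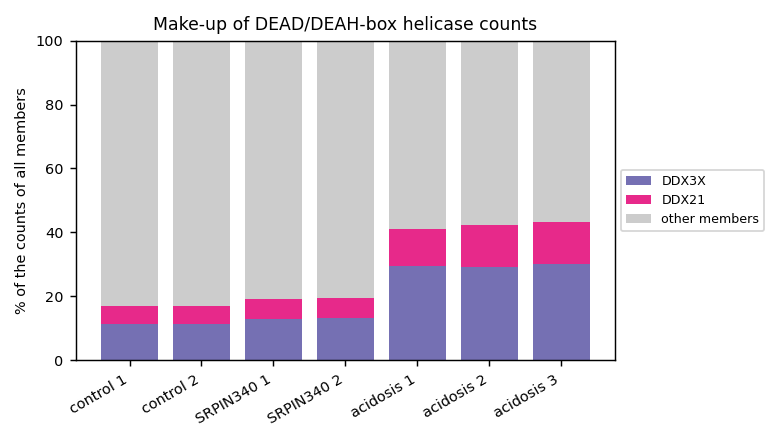
Share of the counts of all members held by DDX3X (violet), DDX21 (pink) and the other members (grey) in each of the 7 samples, as stacked bars that add up to 100%. DDX3X and DDX21 together take 16.8% to 19.4% in the 4 samples of pH 7.4 and 41.1% to 43.3% in the 3 acidosis samples.

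Levels between genes were compared per kilobase of the canonical transcript. In control the order was DDX39B at 284 CPM per kb, DDX5 at 207, DDX3X at 179, DDX17 at 141, DDX1 at 98.5, DDX21 at 89.0, DHX9 at 88.2 and DHX15 at 60.7 CPM per kb. In acidosis DDX3X came first at 691 CPM per kb, before DDX39B at 516 and DDX21 at 294. DDX17 kept the fourth place at 142 CPM per kb, DDX5 was the fifth at 129, and DDX1 went from the fifth place to rank 18 at 32.2 CPM per kb. One length per gene was used in all samples, so a switch between isoforms is not seen on this scale.

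DDX11, an iron-sulfur DNA helicase of sister chromatid cohesion (ENSG00000013573, chr12:31073860-31104799), had the highest fold change among the members tested. Control samples had 75.7 and 77.7 CPM, SRPIN340 samples 77.6 and 78.6 CPM, and acidosis samples 414.5, 284 and 316 CPM. The acidosis samples spread more than for DDX3X and lay well above the 4 others. The increase was 4.41-fold (log2 2.14 ± 0.15 SE, adjusted p = 1.04e-06). The value is uncertain as to the gene it belongs to, since 51.9% of the 31-base stretches of its canonical transcript also occur in transcripts of other genes, first the paralogs DDX12B (45.4%) and DDX12P (42.1%).

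DDX47, a helicase of the small ribosomal subunit (ENSG00000213782, chr12:12813316-12829981), was at 64.6 and 63.0 CPM in control, 58.9 and 60.9 CPM with SRPIN340, and 185, 190 and 173 CPM in acidosis. Again the acidosis samples stood apart. The increase was 2.86-fold (log2 1.52 ± 0.08 SE, adjusted p = 1.73e-07). Transcripts annotated to the neighbouring gene APOLD1 hold 99.7% of its 31-base stretches, so reads could be split between these genes. APOLD1 itself was at a mean of 9.08 CPM in control and 17.5 CPM in acidosis and had a log2 change of 0.94 (adjusted p = 0.000319).

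**Figure D4:**
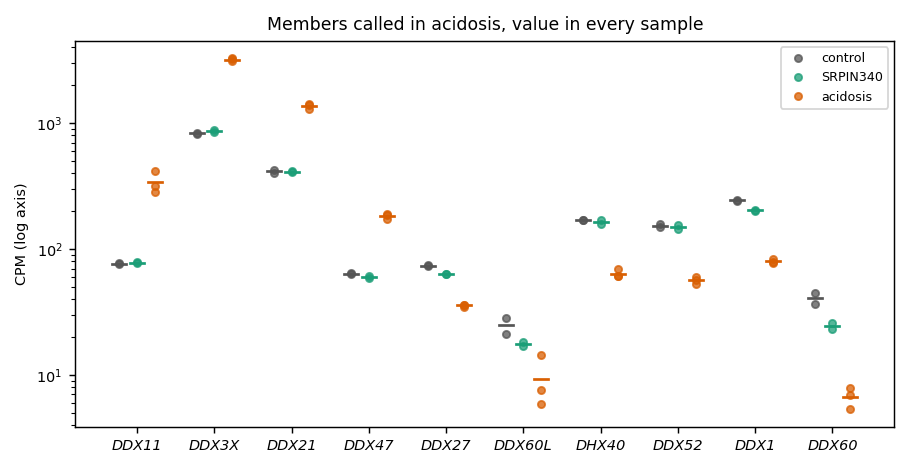
CPM on a log axis for the 10 members called in acidosis against control, one point per sample with a bar at the group mean (control grey, SRPIN340 green, acidosis orange). DDX11, DDX3X, DDX21 and DDX47 have all acidosis points above the other groups, and the remaining 6 genes have them below.

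DDX60 and DDX60L are neighbouring genes on chromosome 4 that are known for induction by interferon. Their promoters were searched on both strands for the core of the interferon-stimulated response element, written GAAANNGAAA, in RefSeq windows from 250 bases before to 50 after the start (GRCh38.p14). Windows were given for 48 member genes, some with several starts, and 3 of these genes held the motif in a window (6.25%), against 4.38% of all 27305 genes with a window. DDX60 and DDX60L held 2 matches each and DHX15 held 1. The stretches are shown because these are the matches among members, with the motif in capitals; all 3 genes are on the minus strand. The RefSeq starts of DDX60 and DDX60L lie inside the genes as GENCODE annotates them, so their stretches do too. A match describes letters only.

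DDX60, chr4:168318821-168318850: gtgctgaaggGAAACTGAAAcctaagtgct
DDX60, chr4:168318786-168318815: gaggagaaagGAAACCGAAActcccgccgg
DDX60L, chr4:168480553-168480582: gaaaactgcgGAAATCGAAAaggcctcgcg
DDX60L, chr4:168480523-168480552: gtggagaaaaGAAACCGAAActaactccct
DHX15, chr4:24584750-24584779: aggatagcctGAAATGGAAAgtgaaggcct

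Transcripts of DDX60 (ENSG00000137628, chr4:168216291-168318883) were at 45.2 and 36.7 CPM in control, 23.1 and 25.7 CPM with SRPIN340, and 5.34, 6.98 and 7.82 CPM in acidosis. The 3 groups did not overlap, with SRPIN340 between the others. In acidosis DDX60 fell 6.16-fold (log2 −2.62 ± 0.17 SE, adjusted p = 8.36e-07). DDX60L (ENSG00000181381, chr4:168356735-168537786) had 28.4 and 21.2 CPM in control, 18.3 and 17.0 CPM with SRPIN340, and 7.66, 5.88 and 14.5 CPM in acidosis. The third acidosis sample came close to the SRPIN340 samples. DDX60L fell 2.67-fold in acidosis (log2 −1.41 ± 0.30 SE, adjusted p = 0.00206), and the log2 change was between −1.85 and −1.19 when each sample was left out in turn. DHX15, whose window also holds the motif, rose in acidosis. DDX60 and DDX60L share 1.4% and 1.25% of their 31-base stretches with each other.

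DDX1, a helicase of the tRNA ligase complex (ENSG00000079785, chr2:15591178-15634346), was at 246 and 243 CPM in control, 200 and 206 CPM with SRPIN340, and 79.0, 77.9 and 82.7 CPM in acidosis. These groups did not overlap and each was tight. The fall in acidosis was 3.06-fold (log2 −1.62 ± 0.06 SE, adjusted p = 4.13e-08). None of its 31-base stretches occurs in another gene.

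Expression of DDX52, a nucleolar helicase related to yeast Rok1 (ENSG00000278053, chr17:37609739-37643446), was 159 and 149 CPM in control, 145 and 157 CPM with SRPIN340, and 56.9, 60.5 and 52.5 CPM in acidosis. Acidosis was low and the other groups overlapped. It fell 2.72-fold (log2 −1.44 ± 0.08 SE, adjusted p = 3.58e-07). DHX40 (ENSG00000108406, chr17:59565558-59608345) was at 170 and 170 CPM in control, 159 and 170 CPM with SRPIN340, and 61.3, 69.5 and 60.7 CPM in acidosis. The pattern was like that of DDX52, and DHX40 fell 2.67-fold (log2 −1.42 ± 0.08 SE, adjusted p = 3.24e-07). Its transcript shares 29.2% of 31-base stretches with the pseudogene DHX40P1. DDX27, the homolog of yeast Drs1 in large subunit assembly (ENSG00000124228, chr20:49219347-49244077), was at 74.2 and 73.7 CPM in control, 63.6 and 63.4 CPM with SRPIN340, and 36.1, 34.8 and 36.0 CPM in acidosis. Every sample of a group lay near its mean. It fell 2.07-fold (log2 −1.05 ± 0.08 SE, adjusted p = 2.33e-06).

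Helicases of the spliceosome moved in both directions and by less than 2-fold. Of 11 members in this group, 5 rose (45.5%) and 3 fell (27.3%) by adjusted p, against 32.5% and 34.2% of all genes, and none was called. DDX39B, DHX15, DHX38, DDX41 and DHX8 rose, and DDX23, DHX16 and DDX46 fell. With total count scaling DHX38 (0.10), DDX41 (0.056) and DHX8 (−0.052) no longer passed. The DEAH-box enzymes of this group act in a known order. DHX16, the Prp2 homolog that completes activation, was at 88.3 and 80.0 CPM in control, 79.1 and 77.0 CPM with SRPIN340 and 67.0, 55.2 and 68.9 CPM in acidosis. Its log2 change was −0.40 ± 0.11 SE (adjusted p = 0.00745), and the change was −0.33 with adjusted p = 0.0648 without the first control sample. DHX38, the Prp16 homolog that acts between the catalytic steps, was at 86.3 and 71.4 CPM in control, 83.5 and 71.3 CPM with SRPIN340 and 158, 96.7 and 123 CPM in acidosis. The acidosis samples of DHX38 spread widely but stayed above control. The increase was 0.68 ± 0.18 SE on the log2 scale (adjusted p = 0.00784), and 0.53 with adjusted p = 0.0875 without the second control sample.

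DHX8, the Prp22 homolog that releases the spliced mRNA, was at 114 and 125 CPM in control, 109 and 102 CPM with SRPIN340 and 169, 171 and 176 CPM in acidosis. It was 1.44-fold higher in acidosis (log2 0.52 ± 0.07 SE, adjusted p = 0.000138). DHX15, the Prp43 homolog that takes the spliceosome apart, was at 178 and 186 CPM in control, 164 and 164 CPM with SRPIN340 and 320, 342 and 310 CPM in acidosis. It was 1.78-fold higher (log2 0.83 ± 0.07 SE, adjusted p = 3.14e-06). For both genes the acidosis samples lay above all others. DDX23, the Prp28 homolog, fell by 0.60 on the log2 scale, DDX41 rose by 0.63, and DDX42, DDX20 and DHX35 did not pass the test at −0.13, −0.04 and −0.29. DDX42 passed, at −0.23 with adjusted p = 0.0435, without the second control sample.

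Among 16 members of ribosome biogenesis, 7 rose (43.8%) and 4 fell (25%) by adjusted p, against 32.5% and 34.2% of all genes, with a median of 0.17 on the log2 scale. Beside DDX21 and DDX47, those that rose were DDX51 (0.81), DDX56 (0.63), DDX10 (0.61), DDX18 (0.30) and DDX24 (0.26). With total count scaling DDX51, DDX56 and DDX10 no longer passed, at 0.23, 0.059 and 0.039. DDX18 and DDX24 turned and passed as lower under that scaling, at −0.27 (adjusted p = 0.00801) and −0.31 (adjusted p = 0.00707). Beside DDX52 and DDX27, those that fell were DHX33 (−0.48) and DDX50 (−0.43). DDX31, DHX37, DDX49, DDX54 and DDX55 did not pass, with log2 values from −0.19 to 0.18. The weakest of these results did not hold in every fit with a sample left out. Where that sample was a control, the control group had 1 sample, which was taken to vary like the other groups. Without the second control sample DDX18 was at 0.19 (adjusted p = 0.0772), without the first or the second DDX24 was at 0.23 (adjusted p = 0.103) or 0.28 (adjusted p = 0.0516), and without the first DDX50 was at −0.26 (adjusted p = 0.0734). Without the second acidosis sample DDX49 and DDX54 passed, at 0.25 (adjusted p = 0.0449) and −0.28 (adjusted p = 0.0155).

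All 8 tested members of mRNA export, translation and decay passed the test, 5 higher and 3 lower, where 66.7% of all genes passed in either direction. Beside DDX3X, DHX34 of nonsense-mediated decay rose by 0.73 (0.15 and no longer past the test with total count scaling). The export helicases DDX39A and DDX19A rose by 0.42 and 0.41 and the G-quadruplex helicase DHX36 by 0.25. These last 3 went below 0 with total count scaling, where DHX36 passed as lower (adjusted p = 0.00909). DDX6, which represses translation and promotes decapping in P bodies, fell 1.95-fold (log2 −0.97 ± 0.07 SE, adjusted p = 1.21e-06) and lay just short of the fold limit. DHX29, which helps scanning of structured leaders, fell by 0.87, and DDX19B fell by 0.27. The results for DDX19A, DDX39A, DDX19B and DHX36 lay near the threshold. DDX19A was at 0.37 (adjusted p = 0.063) without the second control sample. DDX39A was at 0.29 (adjusted p = 0.186), 0.30 (adjusted p = 0.0724) and 0.41 (adjusted p = 0.0536) without the first control, the first acidosis and the third acidosis sample. DDX19B no longer passed in 5 of 7 fits with a sample left out, between −0.39 and −0.17 over the 7, and DHX36 in 6 of 7, between 0.20 and 0.30. DDX19B also did not pass with DESeq2 (adjusted p = 0.0807), RLE scaling (0.0644) and a fit of only the groups compared (0.0581). DHX36 did not pass without a filter (0.0621), with the 6 CPM filter (0.071) and in that fit (0.0722).

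Of the 4 members grouped under transcription and several other functions, DDX1, DDX5 and DHX9 fell and DDX17 did not pass the test at 0.01 on the log2 scale. DHX9, RNA helicase A, was at 404 and 388 CPM in control, 291 and 298 CPM with SRPIN340 and 347, 368 and 310 CPM in acidosis. Control samples were the highest and SRPIN340 samples the lowest. In acidosis it fell 1.16-fold (log2 −0.21 ± 0.08 SE, adjusted p = 0.0301). Without the first control sample it was at −0.19 and no longer passed. It was at −0.22 (adjusted p = 0.0538) and −0.15 (adjusted p = 0.0821) without the first and the third acidosis sample. With RLE scaling it was at −0.19 (adjusted p = 0.0502). The mitochondrial helicases of ribosome assembly went in opposite directions, with DHX30 at 0.59 (adjusted p = 0.000487), which was 0.014 with total count scaling (adjusted p = 0.903), and DDX28 at −0.77 (adjusted p = 0.00363). DDX59, linked to ciliary signalling, fell by 0.88, and DHX32 and DHX57 did not pass at −0.19 and −0.24. The germline helicase DDX25, at 0.12 to 1.44 CPM, did not pass at −0.95 ± 0.78 SE. Without the second acidosis sample DDX25 was at −2.27 (adjusted p = 0.0216) and DHX57 at −0.36 (adjusted p = 0.0262).

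Close paralogs moved by unequal amounts in acidosis, in the same direction for DDX60 with DDX60L and, under TMM scaling, DDX39A with DDX39B. The ratio of DDX21 to its nucleolar paralog DDX50 was 5.31 and 6.34 in control, 5.30 and 5.36 with SRPIN340, and 25.9, 25.5 and 25.7 in acidosis. DDX50 was at 80.5 and 63.5 CPM in control, 76.8 and 78.2 CPM with SRPIN340, and 50.2, 55.5 and 54.4 CPM in acidosis, below both other groups. Other genes, first the pseudogenes DDX50P1 and DDX50P2, hold 26.4% of the 31-base stretches of DDX50. A ratio within a sample is not touched by the scaling between libraries.

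DDX5 and DDX17, the coregulators p68 and p72 of transcription and splicing, changed places in acidosis. With SRPIN340 they did so in CPM only, and per kb DDX5 stayed above DDX17, at 176 against 156 CPM per kb. DDX5 was at 795 and 733 CPM in control, 633 and 662 CPM with SRPIN340, and 515, 450 and 464 CPM in acidosis. DDX17 was at 672 and 675 CPM in control, 741 and 745 CPM with SRPIN340, and 704, 690 and 638 CPM in acidosis. The ratio of DDX5 to DDX17 was 1.18 and 1.09 in control, 0.854 and 0.890 with SRPIN340 and 0.731, 0.653 and 0.727 in acidosis, with no overlap between the 3 groups. In acidosis DDX5 fell 1.60-fold (log2 −0.68 ± 0.07 SE, adjusted p = 1.96e-05).

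The export helicases DDX39B and DDX39A both rose in acidosis, of which DDX39A turned to −0.16 with total count scaling. DDX39B was at 446 and 510 CPM in control, 344 and 327 CPM with SRPIN340, and 961, 801 and 840 CPM in acidosis, which placed the SRPIN340 samples below control and the acidosis samples above it. DDX39A was at 82.4 and 98.5 CPM in control, 77.6 and 77.8 CPM with SRPIN340, and 140, 98.1 and 124 CPM in acidosis, where the second acidosis sample overlapped with control. The ratio of DDX39A to DDX39B was 0.185 and 0.193 in control, 0.226 and 0.238 with SRPIN340 and 0.146, 0.122 and 0.147 in acidosis. DDX39B rose 1.82-fold in acidosis (log2 0.86 ± 0.09 SE, adjusted p = 2.01e-05). A readthrough transcript annotated as ATP6V1G2-DDX39B holds 100% of the 31-base stretches of DDX39B, and the counting could place reads with either.

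DDX19A was at 74.9 and 73.4 CPM in control, 70.0 and 80.7 CPM with SRPIN340, and 99.5, 109 and 85.7 CPM in acidosis. DDX19B, its close paralog that frees mRNA at the nuclear pore, was at 45.8 and 39.8 CPM in control, 40.7 and 39.5 CPM with SRPIN340, and 37.8, 35.4 and 32.9 CPM in acidosis. Their ratio was 1.64 and 1.84 in control, 1.72 and 2.04 with SRPIN340 and 2.63, 3.10 and 2.60 in acidosis. Of their 31-base stretches 66.4% and 49.95% occur in other genes, mostly a readthrough of the pair, so the split between them is uncertain. The ratio of DDX60 to DDX60L was 1.59 and 1.73 in control, 1.26 and 1.51 with SRPIN340 and 0.698, 1.19 and 0.542 in acidosis.

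**Figure D5:**
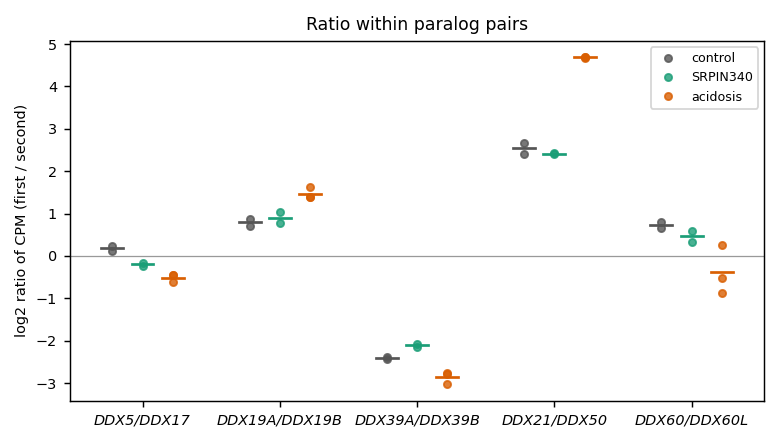
Log2 ratio of CPM within 5 pairs of related helicase genes in each sample, with a bar at the group mean (control grey, SRPIN340 green, acidosis orange). The acidosis points lie apart from the control points in each pair, with the widest gap for DDX21 over DDX50.

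Changes with SRPIN340 were small, and most members lay slightly below control. None of the 49 members was called in either direction, by edgeR or by DESeq2, and by edgeR 0.128% of all genes were called higher and 0.195% lower. By adjusted p alone 3 members were lower and none was higher, against 1.53% and 0.767% of all genes, and at an unadjusted p under 0.05 these numbers were 11 and 0. DESeq2 gave 7 lower and 0 higher. No share over all genes is given for the unadjusted p or for DESeq2, so these counts are not read as a result about the family. Of the 49 members, 40 had a log2 fold change below 0, the median was −0.14 where that of all genes was 0.00, and 37 were below 0 with total count scaling. Most of the related helicases with other names and most of the partner genes, both listed further below, lay below 0 as well. The groups did not overlap for 30 members that were lower (61.2%) and 3 that were higher (6.12%), against 26.8% and 27.3% of all genes.

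The members that passed were DDX46, DDX39B and DHX9. DDX46, the Prp5 homolog that acts in recognition of the branch site (ENSG00000145833, chr5:134758771-134855133), was at 253 and 224 CPM in control, 143 and 153 CPM with SRPIN340, and 167, 200 and 181 CPM in acidosis. Both treatments lay below control, SRPIN340 the lowest. It fell by 0.69 on the log2 scale with SRPIN340 (SE 0.10, adjusted p = 0.0131) and by 0.39 in acidosis (adjusted p = 0.0039). DDX39B fell by 0.51 (SE 0.10, adjusted p = 0.0354) and DHX9 by 0.43 (SE 0.08, adjusted p = 0.0357) with SRPIN340. DDX60 was at −0.75 ± 0.17 SE (adjusted p = 0.0595), DDX56 at −0.41 ± 0.11 SE (adjusted p = 0.0941) and DDX1 at −0.27 ± 0.07 SE (adjusted p = 0.0811), none past the threshold in the main edgeR fit. DESeq2 passed all 3, with adjusted p = 0.00636, 0.014 and 0.0165. The edgeR fit of only control and SRPIN340 passed DDX60 (adjusted p = 0.027), DDX56 (adjusted p = 0.041) and DHX34 (log2 −0.56, adjusted p = 0.0474). By edgeR DDX60 also passed with the 6 CPM filter (adjusted p = 0.0462) and without the first or the second acidosis sample (0.0469 and 0.0468).

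All 3 genes kept their direction with each sample left out, while they mostly no longer passed the test. Leaving out a control or SRPIN340 sample leaves 1 sample in that group, which was taken to vary like the other groups. Without either SRPIN340 sample or without the first control sample 0 members passed, and without the second control sample 1 did. DDX46 was at −0.60 (adjusted p = 0.0853) without the first control sample, −0.64 (adjusted p = 0.158) without the first SRPIN340 sample and −0.74 (adjusted p = 0.104) without the second. DDX39B ran from −0.60 to −0.41 and DHX9 from −0.46 to −0.40 over the 7 fits with a sample left out.

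Set against SRPIN340 rather than control, acidosis gave 8 members called higher and 4 called lower, where 14.9% and 19.7% of all genes were called. By adjusted p alone 23 members were higher and 16 lower, against 32.8% and 35% of all genes. DDX3X, DDX21, DDX11 and DDX47 were higher here too, together with DDX39B (log2 1.37, adjusted p = 9.87e-07), DHX34 (1.28), DDX56 (1.05) and DDX51 (1.03). DDX60, DDX1, DDX52 and DHX40 were lower, at −1.88, −1.34, −1.41 and −1.37 on the log2 scale. DDX60L and DDX27 passed by adjusted p at −0.93 and −0.83, short of the fold limit. DDX46 and DHX9 were lower than control under both treatments and were higher in acidosis than with SRPIN340, by 0.30 (adjusted p = 0.0151) and 0.22 (adjusted p = 0.0292). With total count scaling they passed as lower in acidosis than with SRPIN340, at −0.31 (adjusted p = 0.0128) and −0.40 (adjusted p = 0.00127). DDX46 was at 0.24 and no longer passed without the first SRPIN340 sample. DHX9 no longer passed in 5 of 7 fits with a sample left out. Nor did DHX9 pass without a filter (adjusted p = 0.0574), with the 6 CPM filter (0.0716) or with only both groups fitted (0.0599). Of the members called here, DDX51 and DDX56 lay within the fold limit without the first acidosis sample, and DDX51 also without the second SRPIN340 sample.

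Related helicases with other names were listed as well, 21 in all, of which 19 were tested. In acidosis 8 were higher and 4 lower by adjusted p, and 3 were called higher and 1 lower. These are 42.1%, 21.1%, 15.8% and 5.26% of those tested, where all genes had 32.5%, 34.2%, 14.4% and 19.1%. EIF4A2 and EIF4A1, the DEAD-box subunits of the cap-binding complex, rose by 2.34 and 1.08 on the log2 scale, IGHMBP2 rose by 1.52, and the meiotic helicase HFM1 fell by 2.06. These acidosis values and counts, and those of the partner genes below, hold for TMM scaling. They were not examined with total count scaling, under which the median of all genes went from −0.05 to −0.63. EIF4A1 lay near the fold limit. With SRPIN340 HELZ2, an interferon-inducible coactivator, was called lower at −1.11 (adjusted p = 0.00258) and EIF4A2 was higher by 0.36 (adjusted p = 0.048).

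Proteins that bind or activate these helicases were taken as a list of 42 genes, all tested: G-patch proteins, which switch on DEAH-box enzymes, MIF4G-domain proteins and partners in translation, export and decay. In acidosis 13 were higher (31%) and 18 lower (42.9%) by adjusted p, 3 called higher and 6 called lower (7.14% and 14.3%), with a median of −0.08. Over all genes these shares were 32.5%, 34.2%, 14.4% and 19.1%. The largest called changes were falls of AGGF1 by 3.28, SUGP1 by 2.59 and PDCD4 by 2.31 on the log2 scale and a rise of CHERP by 2.03. SUGP1 is a G-patch partner of DHX15 and PDCD4 an inhibitor of the eIF4A helicases. With SRPIN340 GPATCH4, ALYREF, EIF4G1 and EIF4G2 were lower by adjusted p in the edgeR test, where 1.53% of all genes were. They were at −0.60, −0.51, −0.48 and −0.45 on the log2 scale (adjusted p = 0.0227, 0.0182, 0.00831 and 0.0181). These SRPIN340 values, and those of HELZ2 and EIF4A2 above, were not examined in fits with a sample left out.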

How the data were processed

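Poly(A) RNA from 7 HEK-293 samples was sequenced. Per the labels' processing notes the authors used Trimmomatic 0.39, Trim Galore 0.6.6 and Salmon 1.5.1, with builds named hg38 and GRCh38; the deposited table holds estimated counts per gene from tximport, whose scaling option is not given in the sources used here. Scaling by length would make them depend on transcript models. Estimated counts were rounded. Rows were joined to GENCODE release 44 by Ensembl identifier, and 19977 of 19978 matched.

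The whole table was fitted with edgeR 4.0.16 (R 4.3.3): filterByExpr, TMM, all 7 samples in 1 quasi-likelihood fit, 3 contrasts, Benjamini-Hochberg adjustment over 14863 genes. Standard errors were derived from the test statistic. DESeq2 1.42.0, other scalings, filters, sample sets and a replicate block were alternatives. An exact permutation test of 3 against 2 samples cannot go below p = 0.1 and was not used. The fit was tested on simulated data in which a small set of genes was changed in both directions. That setting does not test the scaling between libraries. Replicate libraries differed beyond sampling noise, so each counts once.

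Members, roles and lists were chosen with earlier results of these data known. Named with every value were members called in acidosis or passing with SRPIN340, listed paralog pairs, the 5 highest per kb and 4 spliceosomal DEAH-box genes; listed helicases and partners were named for up to 4 called genes, plus those passing with SRPIN340, added after their values were seen.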

Additional observations from a re-analysis of the deposited data

How the results depend on the processing

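The 4 members called higher and the 6 called lower in acidosis were called under every alternative tool, filter, sample set, block and left-out sample tried, with DDX6 or DDX25 joining in some; with total count scaling DDX47 was no longer called and 14 were called lower. Of the members with a value, 44 to 48 kept direction and side of the threshold under each other tool, scaling, filter, sample set and block, 41 to 47 with a sample left out and 25 with total count scaling. A fold limit of 0.58 gave 13 higher and 12 lower. With total count scaling 6 members were higher and 32 lower by adjusted p. No share over all genes is given for these counts, for those of the 0.58 limit, or for the SRPIN340 counts below. With total count scaling acidosis against SRPIN340 gave 3 members called higher and 16 lower, where 5.21% and 37% of all genes were called. These log2 values turned with that scaling in acidosis against control: DDX17 −0.56, DDX18 −0.27, DDX19A −0.17, DDX24 −0.31 and DDX39A −0.16. So did those of DDX49 (−0.42), DDX55 (−0.49), DHX36 (−0.33), DHX37 (−0.40) and DHX8 (−0.052). Of these, DDX17, DDX18, DDX24, DDX49, DDX55, DHX36 and DHX37 passed as lower by adjusted p under that scaling. DDX19A, DDX39A and DHX8 did not pass. In acidosis against SRPIN340, DDX46 turned to −0.31 and DHX9 to −0.40, and both passed as lower by adjusted p. Members lower with SRPIN340 by adjusted p numbered 7 with DESeq2, 6 with only both groups fitted, and 0 to 4 with a sample left out. DDX17, near 0, turned to −0.019 without a filter, −0.044 with genes under 6 CPM in both groups dropped and −0.015 with only both groups fitted, and lay between −0.018 and 0.053 with a sample left out. Left-out samples also turned DDX20 (−0.12 to 0.040), DDX31 (−0.15 to 0.078) and DDX55 (−0.043 to 0.20), none past the threshold. Beyond this the cause was not tested.

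With the replicate number as a block, 0 members were lower with SRPIN340 by adjusted p, and DDX20 was at 0.037 in acidosis. DDX19B, DDX39A and DHX9 no longer passed in acidosis (adjusted p = 0.138, 0.076 and 0.132). Deviations of same-numbered samples correlated at −0.115 to 0.063. In a group of 2 samples the deviations are equal and opposite, so these values cannot show whether same-numbered samples were paired. Depth limits the germline members, with DDX25 at 0.12 to 1.44 CPM.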
